A study of Arabidopsis thaliana with 12 samples.

Results

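The 10 genes described here are the cold and dehydration responsive genes COR15A (AT2G42540), COR15B (AT2G42530), COR47 (AT1G20440), RD29A (AT5G52310), RD29B (AT5G52300), KIN1 (AT5G15960), LTI30 (AT3G50970), ERD10 (AT1G20450), RCI2A (AT3G05880) and RCI2B (AT3G05890). They were taken by their gene identifiers from the 33323 genes of the deposited expression table. No cut on their levels was used, but earlier results of these data were known when they were chosen. KLU encodes the cytochrome P450 CYP78A5, and the study asked how its loss and its overexpression alter the rosette transcriptome. RNA came from whole rosettes at 35 days of age, grown with 8 h light and 16 h dark, and each library was made from 1 plant, with 3 libraries for each of 4 genotypes. The lines 35S:KLU1 and 35S:KLU2 are transformants of Col-0 in which the 35S promoter of cauliflower mosaic virus, active in most tissues, drives a KLU coding sequence fused to GFP. The klu mutant carries a T-DNA insertion in the Col-0 background and stands for a single insertion line, and untransformed Col-0 was the wild type (WT). The labels name no cold or drought treatment for these plants.

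Plants switch on this set of genes when they are chilled or lose water. CBF (DREB1) transcription factors bind the dehydration-responsive element, whose core is CCGAC, and the hormone abscisic acid (ABA) acts through ABF transcription factors on the ABA-responsive element, whose core is ACGTG. Many of the encoded proteins are hydrophilic and protect membranes and enzymes while water is short, among them the dehydrins COR47, ERD10 and LTI30 and the chloroplast stroma proteins COR15A and COR15B.

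The labels held for KLU itself, which had 1728.75 to 2890.32 FPKM in the 35S:KLU libraries, 0.13 to 0.22 FPKM in the klu libraries and 5.42 to 6.26 FPKM in Col-0. FPKM are fragments scaled to transcript length and to the number of mapped fragments, so levels are given per length and can be compared between genes. The value of 1 fragment differed 1.64-fold between the shallowest and the deepest library, as read from the steps between low values, and total fragment counts were not used here. Library klu replicate 1 stood apart from the other klu libraries, at a root mean square distance of 0.441 to 0.478 on the log2 scale against 0.242 to 0.309 for all other pairs of the same genotype. It had 18684 genes at 0.5 FPKM or more, against 19053 to 19230 in the other 11 libraries. The summed level of 5 leaf markers (RBCS1A, LHCB1.3, RCA, CA1 and GAPA1) was 49469.75 to 54924.87 FPKM in the 35S:KLU libraries, 57542.28 to 69315.22 FPKM in the klu libraries and 58278.39 to 62426.5 FPKM in Col-0, and 3 of the 5 were lower in the lines than in both other genotypes. Seed and flower markers summed to at most 0.39 and 1.5 FPKM, and of the 5 root markers the root hair gene RHD6 was listed at 0 and COBL9 at no more than 0.12 FPKM, whereas WOX5, SCR and PHO1 ranged over 0.23 to 2.03, 9.4 to 11.16 and 5.1 to 9.89 FPKM. The part of these differences in the results was not tested, and in RNA of whole rosettes fewer cells with a transcript and less transcript per cell cannot be told apart.

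All 10 genes lie next to a related gene in the genome. In the TAIR10.1 assembly, COR15B and COR15A lie 7 bases apart on the minus strand of chromosome 2 (chr2:17708593-17710433 and chr2:17710441-17712330). COR47 and ERD10 lie 1029 bases apart on the minus strand of chromosome 1 (chr1:7084409-7086873 and chr1:7087903-7089606), and RD29B and RD29A lie 1185 bases apart on the plus strand of chromosome 5 (chr5:21237021-21239531 and chr5:21240717-21243644). RCI2A and RCI2B lie 515 bases apart on the minus strand of chromosome 3 (chr3:1755497-1756924 and chr3:1757440-1758807). KIN1 (chr5:5209717-5210826, plus strand) is followed after 892 bases by its near copy KIN2, and LTI30 (chr3:18940643-18941611, plus strand) after 313 bases by the dehydrin gene XERO1. Identical coding bases made up 95% of the longer coding sequence for KIN1 and KIN2, 84.2% for RCI2A and RCI2B, 82.6% for COR15A and COR15B, 76.2% for COR47 and ERD10 and 60.4% for RD29A and RD29B, with a longest identical run of 58, 22, 31, 32 and 41 bases in that order. Fragments from such runs could have been divided between the neighbours when reads were assigned, so the split within KIN1 and KIN2 is the least certain. COR15B overlaps AT2G42520 by 468 bases and RCI2A overlaps APC11 by 135 bases, on opposite strands. These neighbours had 20.96 to 26.52 and 3.97 to 7.46 FPKM, and whether the counting used strand is not given in the sources used here.

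The 200 bases before the annotated RefSeq gene start are shown for 5 members, because 4 of them hold the most copies of the CBF and ABF core sequences while COR47, which was lower in the 35S:KLU lines than in Col-0, holds none. Capitals mark CCGAC and ACGTG, also where they are read on the opposite strand as GTCGG and CACGT. The windows are chr5:21240517-21240716 (plus strand) for RD29A, chr3:18940443-18940642 (plus strand) for LTI30, chr5:21236821-21237020 (plus strand) for RD29B, chr2:17712331-17712530 (minus strand) for COR15A and chr1:7086874-7087073 (minus strand) for COR47.
RD29A: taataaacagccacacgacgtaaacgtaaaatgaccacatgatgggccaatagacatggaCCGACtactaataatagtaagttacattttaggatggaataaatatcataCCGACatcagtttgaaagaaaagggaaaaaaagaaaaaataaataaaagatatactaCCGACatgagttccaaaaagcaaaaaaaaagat
LTI30: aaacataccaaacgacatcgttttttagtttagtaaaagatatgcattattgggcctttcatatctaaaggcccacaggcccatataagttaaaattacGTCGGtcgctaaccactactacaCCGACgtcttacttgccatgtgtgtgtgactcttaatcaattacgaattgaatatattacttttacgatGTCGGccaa
RD29B: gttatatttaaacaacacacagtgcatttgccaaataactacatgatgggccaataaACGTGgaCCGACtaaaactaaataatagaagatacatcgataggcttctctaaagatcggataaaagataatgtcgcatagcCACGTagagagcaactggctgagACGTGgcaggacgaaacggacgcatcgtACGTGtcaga
COR15A: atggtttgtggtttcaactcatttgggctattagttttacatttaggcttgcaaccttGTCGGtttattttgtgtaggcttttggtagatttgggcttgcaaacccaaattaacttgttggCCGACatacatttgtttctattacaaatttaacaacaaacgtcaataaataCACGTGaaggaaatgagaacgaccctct
COR47: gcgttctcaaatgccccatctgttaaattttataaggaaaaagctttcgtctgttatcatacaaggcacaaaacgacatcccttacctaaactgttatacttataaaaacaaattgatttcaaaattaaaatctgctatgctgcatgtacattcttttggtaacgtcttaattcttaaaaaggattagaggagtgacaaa
RD29A and LTI30 each had 3 copies of CCGAC, and COR15A had 2. RD29B had 1 copy of CCGAC beside 4 of ACGTG, and the 6 capitals near the start of COR15A are ACGTG read on both strands, counted as 2.

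Over all members, CCGAC stood in 5 of the 10 windows, the fifth being that of RCI2A with 1 copy, against 10% of the 26711 promoter windows of the same length in the genome, and 3 members had least 2 copies, against 1.06%. ACGTG stood in 3 windows (RD29B, COR15A and KIN1 with 1 copy), against 20.0% of all windows. The evening element AAAATATCT and the sequence CGCGT, bound by CAMTA factors, were found in 0 of the 10 windows, against 1.95% and 5.91% of all windows. COR15B, COR47, ERD10 and RCI2B held none of these sequences in this window, the first of which lies almost wholly within COR15A. Both strands were searched, a match is only a description of the sequence, and the windows depend on where the annotation places the gene start.

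The 10 genes differed widely in level. In Col-0, COR15A averaged 2340 ± 330 FPKM, COR15B 1320 ± 135, RD29A 852 ± 74.5, COR47 682 ± 86.2 and ERD10 565 ± 45.8 (SD, n = 3). RCI2A followed with 244 ± 17.8, KIN1 with 160 ± 27.5, LTI30 with 143 ± 21.6, RCI2B with 6.81 ± 3.10 and RD29B with 4.97 ± 2.01 FPKM (SD, n = 3). COR47 and ERD10, KIN1 and LTI30, and RCI2B and RD29B overlapped between libraries in this order, and the other neighbours did not. All 10 genes reached 0.5 FPKM in 3 or more libraries, the condition for a test, which 19660 genes met.

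Each of the 10 genes was tested for differentially expressed genes (DEGs) in the mean of both 35S:KLU lines against Col-0 and against klu. Differences were tested with limma on log2(FPKM + 1) over all genes that passed the filter, and a gene was called a DEG at an adjusted p (Benjamini-Hochberg) under 0.05. Against Col-0, the mean of both lines was lower for 3 genes (COR47, RD29A and RCI2B) and higher for 0, beside 8.18% of all tested genes lower and 11.4% higher, 19.6% in all. Against klu, the lines were lower for 3 genes (RCI2B, RCI2A and COR47) and higher for 1 (COR15B), beside 10.7% of all tested genes lower and 15.9% higher, 26.6% in all. The median log2 fold change of the 10 genes was -0.33 against Col-0, where that of all tested genes was 0.03, and -0.09 against klu, where that of all tested genes was 0.04. Both comparisons use the same 6 libraries of the lines, and values for the lines are for the mean of both unless 1 line is named. RCI2B had the lowest value in both, so its dependence on the value added before the logarithm, described with that gene, does not enter these medians. Over all genes, 3130 DEGs were higher and 2098 lower in the lines than in klu, a split that became 2904 and 2933 with upper-quartile scaling of the libraries.

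Each line was also compared on its own, with the same Col-0 and klu libraries. Against Col-0, 2 genes were lower and 0 higher in 35S:KLU1 (COR47 and RD29A), beside 6.07% and 5.6% of all tested genes, and 2 were lower and 0 higher in 35S:KLU2 (COR47 and RCI2B), beside 5.27% and 10.8%. Against klu, 3 were lower and 0 higher in 35S:KLU1 (COR47, RCI2A and RCI2B), beside 9.2% and 9.52%, and 1 was lower and 1 higher in 35S:KLU2 (RCI2B and COR15B), beside 7.11% and 15%. These last shares moved with library scaling, since with upper-quartile scaling 8.76% of all tested genes were lower and 9.22% higher in 35S:KLU2 than in Col-0, and 11.5% lower and 11.8% higher than in klu. All 3 libraries lay below those of Col-0 for 6 genes in 35S:KLU1 (COR47, ERD10, COR15A, COR15B, RCI2A and RD29A), as in 19.8% of all tested genes, and for 5 genes in 35S:KLU2 (COR47, ERD10, RD29A, LTI30 and RCI2B), as in 14.3%. COR47, ERD10 and RD29A were thus the 3 genes below Col-0 in all 6 libraries, as in 11.8%, and RCI2A and RCI2B the 2 below klu in all 6, as in 9.79%, while 0 genes lay above klu in all 6, as in 14.5%.

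**Figure D1:**
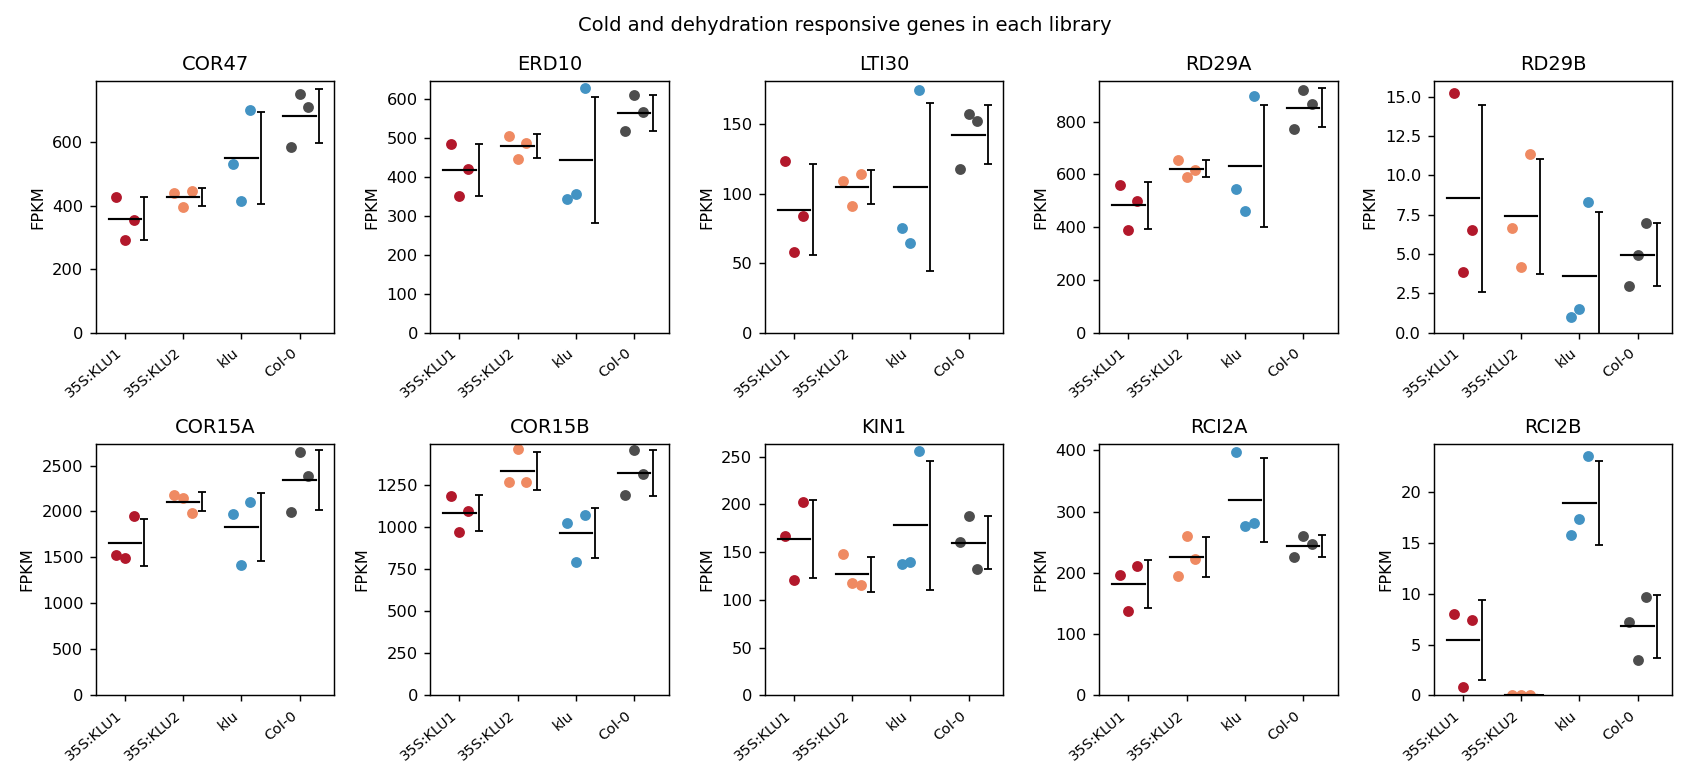
Level of each of the 10 genes in FPKM (y axis, starting at 0) in the 3 libraries of 35S:KLU1, 35S:KLU2, klu and Col-0 (points), with the genotype mean (horizontal line) and its SD (bar, cut at 0 for RD29B). COR47 and RD29A sit lower in all 6 libraries of the lines than in the 3 of Col-0, RCI2B is at 0 in the 3 libraries of 35S:KLU2, and klu replicate 3 lies above the other klu libraries for 9 of the 10 genes.

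COR47, a dehydrin, was lower in the lines than in Col-0. COR47 had 428.06, 293.31 and 353.20 FPKM in 35S:KLU1, 438.18, 395.27 and 446.75 FPKM in 35S:KLU2, 532.38, 413.11 and 701.26 FPKM in klu and 585.31, 751.00 and 709.20 FPKM in Col-0. All 6 libraries of the lines lay below all 3 of Col-0, while they overlapped with klu. For the mean of both lines the log2 fold change was -0.80 against Col-0 (SE 0.155, limma adjusted p = 0.00429), which is 1.74-fold lower, and each line passed on its own, with -0.94 for 35S:KLU1 (adjusted p = 0.00694) and -0.67 for 35S:KLU2 (adjusted p = 0.026). Against klu the mean of both lines was at -0.47 (SE 0.155, adjusted p = 0.0436), a call kept in 7 of 19 alternative settings. It was lost without klu replicate 1 (adjusted p = 0.0868), without klu replicate 3 (0.187) and without 7 other libraries taken singly. It was also lost without the filter (0.0737), with only the genotypes compared (0.061) and with library weights (0.0937). Taken singly against klu, 35S:KLU1 passed (-0.60, adjusted p = 0.0359, called in 12 of 19 settings) and 35S:KLU2 did not (-0.33, adjusted p = 0.207). The calls of the mean of both lines and of 35S:KLU1 against Col-0 held in all 19 alternative settings. That of 35S:KLU2 was lost without any 1 of its libraries, without Col-0 replicate 2 (adjusted p = 0.0906) and without Col-0 replicate 3 (0.0708).

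ERD10, the dehydrin gene beside COR47, was not called in either comparison. ERD10 had 484.19, 350.56 and 420.09 FPKM in 35S:KLU1, 505.88, 446.65 and 486.32 FPKM in 35S:KLU2, 343.52, 356.56 and 629.04 FPKM in klu and 517.83, 609.30 and 567.80 FPKM in Col-0. The lines again lay below Col-0 in all 6 libraries, but the log2 fold change of -0.34 (SE 0.17) did not pass the test (limma adjusted p = 0.181). It passed without klu replicate 3, which enters only through the shared estimate of the spread (adjusted p = 0.0258), and in klu that library stood at 629.04 FPKM against 343.52 and 356.56 FPKM in the other 2.

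LTI30, a dehydrin that accumulates in the cold, had 123.54, 58.46 and 83.94 FPKM in 35S:KLU1, 109.41, 91.37 and 114.22 FPKM in 35S:KLU2, 75.60, 64.30 and 174.72 FPKM in klu and 118.00, 157.67 and 152.58 FPKM in Col-0. The lines overlapped with Col-0 through 35S:KLU1 replicate 1. The log2 fold change was -0.59 against Col-0 (SE 0.285, limma adjusted p = 0.174), again past the threshold without klu replicate 3 (adjusted p = 0.0462), and -0.01 against klu (95% interval -0.63 to 0.61). Of the other dehydrin genes, 4 were tested and 0 called against Col-0 or klu for both lines averaged (limma), beside 19.6% and 26.6% of all tested genes. ERD14 alone had an unadjusted p under 0.05 (limma, 0.0132, against Col-0). HIRD11 was the most abundant at 3470.71 to 4939.48 FPKM and was higher in 35S:KLU2 alone than in klu (log2 fold change 0.33, adjusted p = 0.0347), ERD14 ranged over 478.31 to 759.32 FPKM and RAB18, a classic ABA-responsive dehydrin, over 50.32 to 102.52 FPKM. ERD14 was the nearest to a call, with a log2 fold change of -0.35 against Col-0 (adjusted p = 0.0609). All 6 libraries of the lines lay below Col-0, as in 11.8% of all tested genes. ERD14 passed with either other scaling of the libraries (0.0243 and 0.0176), without klu replicate 1 (0.0352) and without klu replicate 3 (0.00835). The dehydrin gene AT4G38410 stayed at or under 0.97 FPKM and AT2G21490 and XERO1 at or under 0.21 and 1.11 FPKM, and AT4G39130 was listed at 0.

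RD29A and RD29B encode related hydrophilic proteins and are the standard reporters of the CBF and ABA branches. RD29A had 561.61, 387.63 and 497.77 FPKM in 35S:KLU1, 655.94, 590.80 and 617.15 FPKM in 35S:KLU2, 544.23, 459.51 and 895.50 FPKM in klu and 771.99, 919.16 and 865.74 FPKM in Col-0. All 6 libraries of the lines were below Col-0, and 35S:KLU1 was below 35S:KLU2. The log2 fold change against Col-0 was -0.64 (SE 0.18, limma adjusted p = 0.024), which is 1.56-fold lower. Taken singly, 35S:KLU1 passed (-0.83, adjusted p = 0.0214, lost without 35S:KLU1 replicate 2 at 0.0828, its replicate 3 at 0.0553, Col-0 replicate 2 at 0.0752 or Col-0 replicate 3 at 0.0622) and 35S:KLU2 did not (-0.45, adjusted p = 0.15), and the difference between the lines was 0.38 (adjusted p = 0.881). The call against Col-0 was lost without Col-0 replicate 2 (adjusted p = 0.0949) and without Col-0 replicate 3 (0.0754), and against klu the log2 fold change was -0.16 (adjusted p = 0.551).

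RD29B was low in all libraries and was not called. It had 15.20, 3.83 and 6.55 FPKM in 35S:KLU1, 6.63, 4.17 and 11.37 FPKM in 35S:KLU2, 1.03, 1.48 and 8.31 FPKM in klu and 2.97, 4.95 and 6.98 FPKM in Col-0. The highest value was that of 35S:KLU1 replicate 1 and the lowest 2 those of klu replicates 1 and 2, and the genotypes overlapped. The log2 fold change was 0.50 against Col-0 (SE 0.49, limma adjusted p = 0.517) and 1.17 against klu (SE 0.49, adjusted p = 0.101). Without klu replicate 3 the second became 1.86 (adjusted p = 0.00778).

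COR15A and COR15B encode small chloroplast proteins that stabilize membranes during freezing, and COR15A was the most abundant of the 10 genes. COR15A had 1530.52, 1493.78 and 1955.03 FPKM in 35S:KLU1, 2181.51, 2146.28 and 1988.48 FPKM in 35S:KLU2, 1976.02, 1415.99 and 2105.51 FPKM in klu and 1992.89, 2648.11 and 2388.60 FPKM in Col-0. 35S:KLU1 lay below Col-0 in every library and 35S:KLU2 did not. The log2 fold change of the mean of both lines was -0.32 against Col-0 (SE 0.14, limma adjusted p = 0.12) and 0.04 against klu (adjusted p = 0.846).

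COR15B was higher in the lines than in klu, the 1 call in this direction among the 10 genes. It had 1181.23, 970.53 and 1091.96 FPKM in 35S:KLU1, 1262.76, 1459.02 and 1263.81 FPKM in 35S:KLU2, 1023.75, 792.78 and 1067.77 FPKM in klu and 1185.76, 1455.47 and 1313.35 FPKM in Col-0. All 3 libraries of 35S:KLU2 exceeded klu, as in 24.1% of all tested genes, at a log2 fold change of 0.48 (SE 0.12, limma adjusted p = 0.0187), whereas 35S:KLU1 overlapped with klu (0.18, adjusted p = 0.367). The 35S:KLU2 call was lost with either other scaling (0.0725 and 0.0659), with only those genotypes in the model (0.0628), without 35S:KLU2 replicate 2 (0.0676) and without klu replicate 2 (0.0537). For the mean of both lines it was 0.33 (SE 0.11, adjusted p = 0.0425), a call lost without klu replicate 2, which had the lowest value (adjusted p = 0.186), without 6 other libraries taken singly and with scaling by median of ratios (0.12) or by upper quartile (0.113). Against Col-0 the lines were at -0.14 (95% interval -0.37 to 0.10), and klu lay below Col-0 in all 3 libraries, as in 3.64% of all tested genes, without passing the test (-0.46, adjusted p = 0.422).

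KIN1, which encodes a small alanine-rich protein induced by cold and ABA, had 166.78, 120.85 and 202.27 FPKM in 35S:KLU1, 147.95, 117.25 and 115.21 FPKM in 35S:KLU2, 138.07, 139.98 and 256.08 FPKM in klu and 160.69, 187.33 and 132.25 FPKM in Col-0. All genotypes overlapped, and the highest value was again that of klu replicate 3. The log2 fold changes were -0.16 against Col-0 (95% interval -0.61 to 0.29) and -0.26 against klu (95% interval -0.72 to 0.19), with limma adjusted p of 0.637 and 0.388.

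RCI2A and RCI2B encode very small hydrophobic membrane proteins induced by cold, and both were lower in the lines than in klu. RCI2A had 196.22, 137.17 and 211.22 FPKM in 35S:KLU1, 194.18, 260.39 and 222.88 FPKM in 35S:KLU2, 397.61, 276.01 and 281.22 FPKM in klu and 225.48, 260.89 and 246.85 FPKM in Col-0. All 6 libraries of the lines lay below the 3 of klu, and klu lay above Col-0. The log2 fold change of the mean of both lines was -0.65 against klu (SE 0.15, limma adjusted p = 0.00848), which is 1.56-fold lower, and -0.29 against Col-0 (adjusted p = 0.211). The call of the mean against klu held in all 19 alternatives, including without klu replicate 1, which had the highest value. Taken singly against klu, 35S:KLU1 passed (-0.81, limma adjusted p = 0.00801). 35S:KLU2 did not (-0.48, adjusted p = 0.0674) and was called in 1 of 19 alternatives.

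RCI2B had 7.97, 0.88 and 7.42 FPKM in 35S:KLU1, 0, 0 and 0 FPKM in 35S:KLU2, 15.79, 17.34 and 23.58 FPKM in klu and 7.21, 3.53 and 9.70 FPKM in Col-0. It was thus listed at 0 in every library of 1 line, while 35S:KLU1 overlapped with Col-0 and klu exceeded every other library. None of 10 genes used by every cell, such as ACT2 and UBQ10, was listed at 0 in a library. Their summed level was 4037.8 to 5377.76 FPKM, so this says little about a gene as low as RCI2B. Whether the values of 0 come from the transcript or from its estimate was not tested. The mean of both lines passed against klu (limma adjusted p = 3.84e-04) in all 19 alternatives and against Col-0 (adjusted p = 0.0169) in 17 of 19, the exceptions being without Col-0 replicate 1 (0.0679) and without Col-0 replicate 3 (0.0807). No fold change is given for these contrasts, because with 35S:KLU2 at 0 it depends on the value added before the logarithm. For 35S:KLU1, with no library at 0, the log2 fold change was -1.91 against klu (SE 0.49, adjusted p = 0.0184) and -0.50 against Col-0 (SE 0.49, adjusted p = 0.569).

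The nearest 2 genes on either side of RCI2B were above 0 in all 3 libraries of 35S:KLU2. Among them, the noncoding RNA gene AT3G05905 had only 0.31, 0.09 and 0.23 FPKM there. It was listed at 0 in Col-0 replicate 2 and did not pass the filter. RCI2A, 515 bases away and 84.2% identical in its coding sequence, had 194.18 to 260.39 FPKM in the same 3 libraries. The next gene on the other side with more than 1 FPKM, AT3G05900, had 9.79 to 12.85 FPKM in the lines, 22.92 to 28.58 FPKM in the klu libraries and 18.5 to 23.45 FPKM in Col-0, and AT3G05910 behind it at 43.99 to 53.35 FPKM in all libraries. AT3G05900 and AT3G05910 were picked after their values were seen. RCI2B made up 0 to 3.9% of the sum of RCI2A and RCI2B in the lines, 3.82 to 7.74% in klu and 1.33 to 3.78% in Col-0. Of the rest of the RCI2 family, 3 were tested, and 1 was lower and 0 higher in the lines than in klu, beside 10.7% and 15.9% of all tested genes. The lower gene was AT4G30660 (log2 fold change -0.21, limma adjusted p = 0.0279). All 6 libraries of the lines, at 368.23 to 401.95 FPKM, lay below the 417.39 to 474.05 FPKM of klu, as in 9.79%. Its call was lost without klu replicate 1 (0.0806), without 5 other libraries taken singly (up to 0.0621) and with library weights (0.0646). For the mean of both lines, AT2G24040 was at 0.50 against Col-0 (adjusted p = 0.0625, called in 4 of 19 alternatives) and 0.04 against klu, and AT4G30650 at 0.12 and 0.21, with 0 calls. In 35S:KLU2 alone AT2G24040 was higher than in Col-0 (0.70, adjusted p = 0.0356). The family members AT1G57550, AT4G28088 and AT2G38905 were listed at 0 in all 12 libraries.

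**Figure D2:**
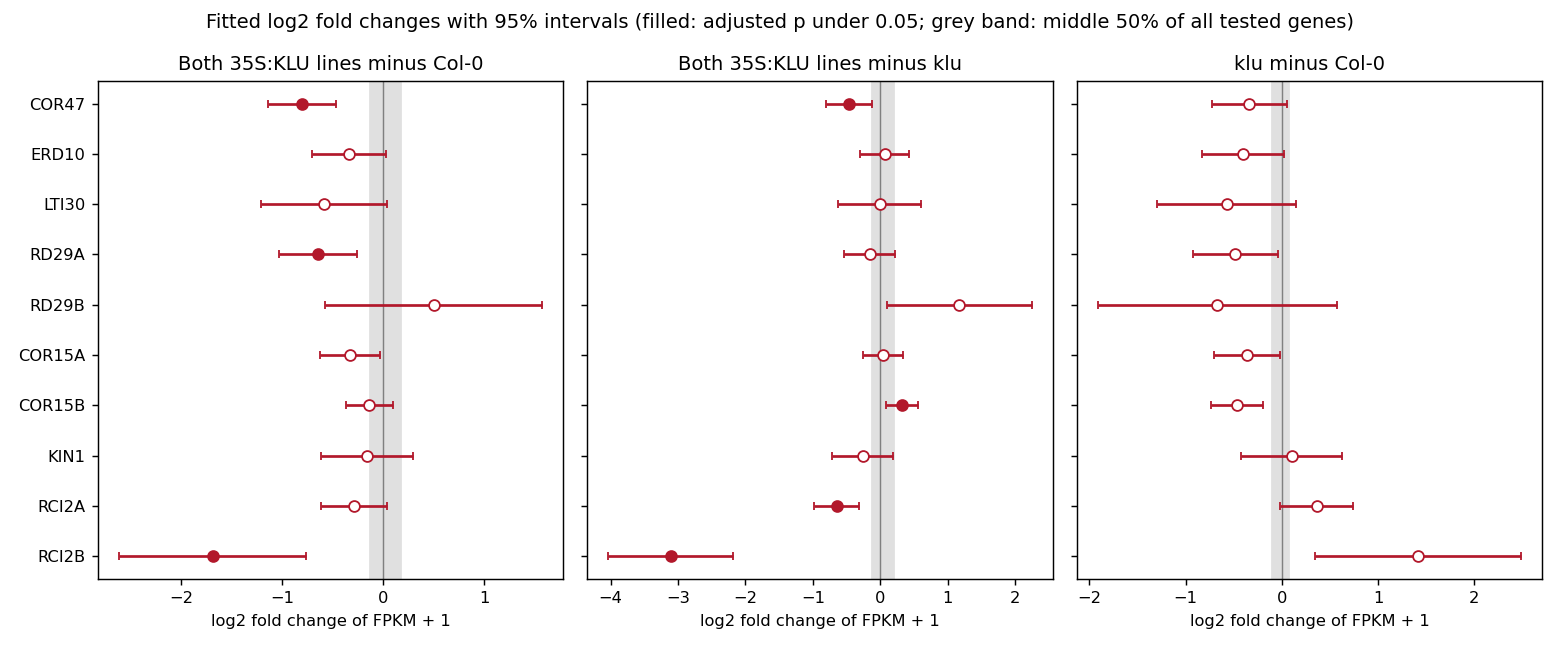
Fitted log2 fold change of FPKM + 1 (x axis) of each gene (rows) with its 95% interval, for the mean of both 35S:KLU lines against Col-0, for the same against klu and for klu against Col-0; filled points have an adjusted p under 0.05 and the grey band holds the middle 50% of all tested genes. COR47, RD29A and RCI2B are filled in the first panel, COR47, RCI2A, RCI2B and COR15B in the second and 0 genes in the third, and the position of RCI2B in the first 2 panels depends on the value of 1 added before the logarithm.

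Between klu and Col-0, 0 of the 10 genes were DEGs by limma, beside 0.061% of all tested genes (0.0203% higher and 0.0407% lower), and 4 had an unadjusted p under 0.05, as did 6.01% of all tested genes. The median log2 fold change was -0.39, against -0.01 for all tested genes, and 7 of the 10 values were below 0. COR15B was lower in klu in every library, and RCI2A and RCI2B were higher in every library, as in 4.48% of all tested genes, with log2 fold changes of 0.36 (adjusted p = 0.846) and 1.42 (adjusted p = 0.726). RD29A was at -0.49 (95% interval -0.93 to -0.04) and ERD10 at -0.41 (95% interval -0.83 to 0.02). The spread within klu was wide, at a coefficient of variation of 36.4% for ERD10, 36.5% for RD29A and 57.9% for LTI30, against 8.11%, 8.74% and 15.1% in Col-0.

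Between the lines, 35S:KLU2 against 35S:KLU1 gave 0 calls among the 10 genes by limma, beside 0.0102% of all tested genes, and 3 had an unadjusted p under 0.05, as did 5.66% of all tested genes. COR15A, COR15B and RD29A were higher in all 3 libraries of 35S:KLU2, as in 14.7% of all tested genes, at log2 fold changes of 0.35, 0.30 and 0.38 with adjusted p of 0.87, 0.863 and 0.881. RCI2B was lower in all 3, as in 1.89%, and was called without 35S:KLU1 replicate 2, which had the lowest value of its line (adjusted p = 0.00605), and with 0.1 in place of 1 added before the logarithm (adjusted p = 0.0216). The median log2 fold change of all tested genes between the lines was 0.065, and -0.002 with median-of-ratios scaling. The shares of 14.7% and 1.89% were not computed with that scaling.

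Libraries differed in these genes within genotypes as well. Averaged over the 10 genes as standardized log2 levels, 35S:KLU1 replicate 2 was lowest at -1.37 SD and klu replicate 2 next at -0.87, while klu replicate 3 was highest at 1.07, followed by Col-0 replicate 2 at 0.97 and Col-0 replicate 3 at 0.72. 35S:KLU1 replicate 2 was among the 3 lowest libraries for 8 of the 10 genes, and klu replicate 3 among the 3 highest for 8. That library was also the highest klu library for CBF1, CBF2 and CBF3. The 3 libraries of 35S:KLU2 lay close together, between -0.21 and -0.05. Library klu replicate 1, which stood apart over the whole table, was not extreme in this average (-0.25), and without it 3 of the 10 genes were called against Col-0 and 3 against klu, COR47 being the gene lost against klu.

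**Figure D3:**
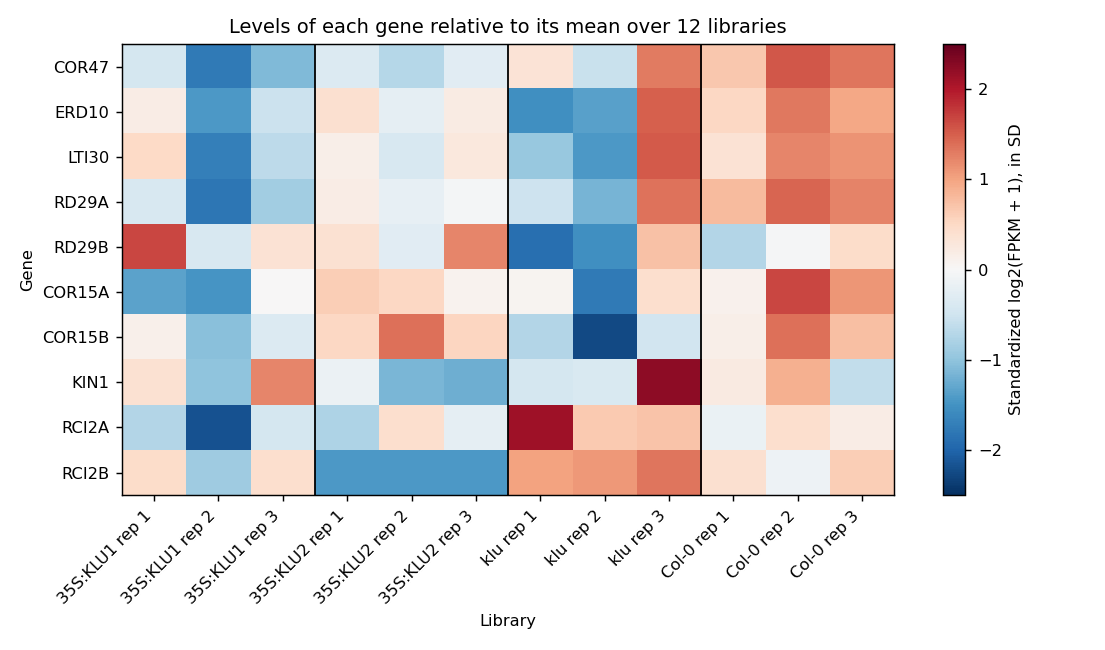
Heat map of the 10 genes (rows) in the 12 libraries (columns, grouped by genotype), where color gives log2(FPKM + 1) minus the mean of the gene over all libraries in SD. The column of 35S:KLU1 replicate 2 is blue for nearly all genes and that of klu replicate 3 red for 9 of the 10, and RCI2B is low in all of 35S:KLU2.

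Some members followed each other closely over the 12 libraries and others did not. The likeness of 2 genes was measured as the root mean square difference of their standardized log2 levels, which is 0 for the same pattern. LTI30 and ERD10 were the most alike of the 10 genes (0.24), then RD29A and LTI30 (0.36), COR47 and RD29A (0.39) and RD29A and ERD10 (0.40). These 4 genes lie on 3 chromosomes, and RD29A and LTI30 have 3 copies of CCGAC each in the windows shown while COR47 and ERD10 have 0. COR15B and RCI2B were the least alike (1.74).

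Among the 14412 other tested genes with a mean of at least 5 FPKM, AT1G16850 came nearest to RD29A (0.24), LTI30 (0.29) and ERD10 (0.26). ERD14 was among the 3 nearest to each of these 3 genes, at 0.32, 0.32 and 0.34, and PP2CA, a phosphatase that restrains ABA signaling, was near LTI30 (0.30). AT1G51090 (0.21) and COR413-PM1 (0.27) were nearest to COR47 together with AT1G27200 (0.25), OEP16-1 to COR15B (0.23) and ERD7 second to ERD10 (0.28). Nearest to RD29B were AT3G28715, AT2G43500 and HB-12, a homeodomain gene that responds to ABA (0.32, 0.34 and 0.35). RCI2B came nearest to the sugar transporter gene STP1 (0.38), to ATCTH (0.40) and to the clock gene PRR9 (0.44). COR15A and KIN1 had no neighbour as close, with 0.50 to AT3G55240 and 0.56 to HB-2, and the nearest to RCI2A was at 0.32. The average of the 10 genes was matched most closely by AT5G17460 (0.25). These measures describe 12 libraries that share their genotypes.

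Neighbouring genes were then compared within each library, as the log2 ratio of their FPKM + 1. This test was added after the values had been seen, for 4 pairs. RCI2A with RCI2B and LTI30 with XERO1 were not among them, and the adjusted p depends on which pairs are tested. The log2 ratio of COR47 to ERD10 was -0.18, -0.26 and -0.25 in 35S:KLU1, -0.21, -0.18 and -0.12 in 35S:KLU2, 0.63, 0.21 and 0.16 in klu and 0.18, 0.30 and 0.32 in Col-0. COR47 was thus below ERD10 in all 6 libraries of the lines and above it in all 6 libraries of klu and Col-0. The mean difference was -0.46 against Col-0 and -0.53 against klu, each with p = 0.0238 in a two-sided exact permutation test of 6 against 3 libraries, the smallest p this design can give. Adjusted over the 8 such exact permutation tests (4 pairs, each against Col-0 and klu) it was p = 0.0762 and did not pass. Both tests of this pair already stood at the smallest p, so whether they passed depended on the p of the other pairs. Leaving out single libraries gave mean differences of -0.51 to -0.44 against Col-0 and -0.62 to -0.38 against klu.

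For RD29A and RD29B the log2 ratio was 5.12 to 6.84 in the lines, 6.59 to 8.07 in klu and 6.76 to 7.61 in Col-0. The difference of the means was -1.15 for the lines against Col-0 and -1.33 for the lines against klu (exact permutation p = 0.0476 each, adjusted p = 0.0762). These sizes depend on the value added to the low levels of RD29B, and with 0.1 in place of 1 they were -1.22 and -1.69. For COR15A and COR15B it was 0.37 to 0.84 in the lines, 0.84 to 0.98 in klu and 0.75 to 0.86 in Col-0, a difference of -0.19 against Col-0 (exact permutation p = 0.119) and -0.28 against klu (p = 0.0476, adjusted p = 0.0762). KIN1 and KIN2 gave differences of -0.03 and -0.39 (exact permutation p = 0.881 and 0.5).

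**Figure D4:**
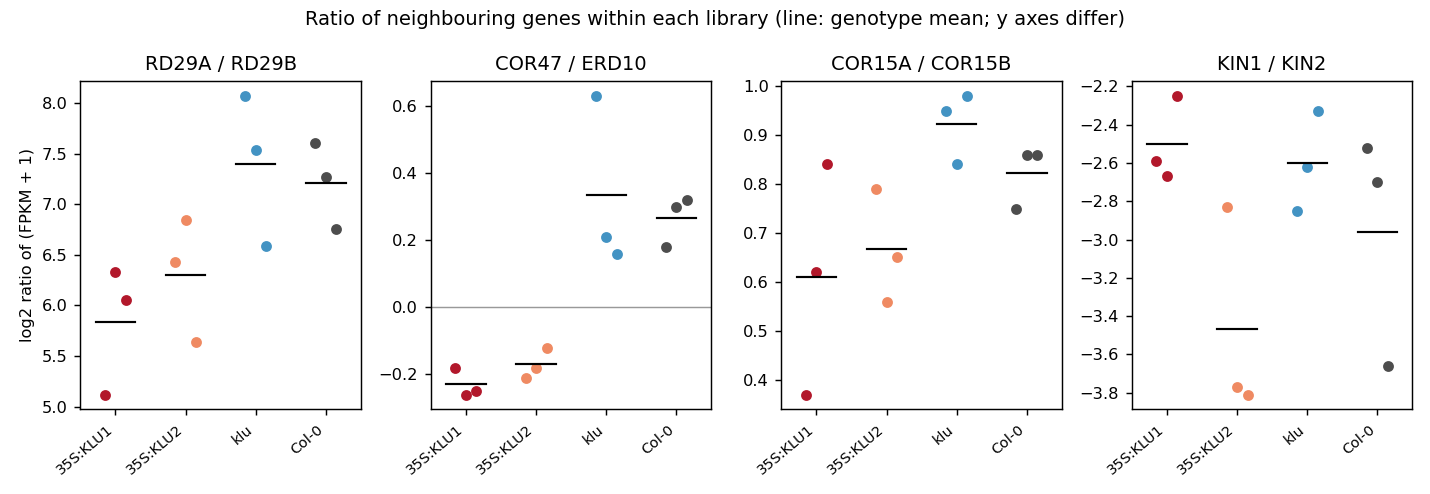
Log2 ratio of FPKM + 1 of neighbouring genes (y axis, with a different range in each panel) in each library (points) of 35S:KLU1, 35S:KLU2, klu and Col-0, with the genotype mean (line). The ratio of COR47 to ERD10 is below 0 (grey line) in the 6 libraries of the lines and above 0 in the other 6.

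The CBF genes, which encode the upstream activators, were lower in the lines than in both other genotypes. CBF1 had 5.49, 3.87 and 3.71 FPKM in 35S:KLU1, 5.81, 4.93 and 5.52 FPKM in 35S:KLU2, 8.59, 8.90 and 26.06 FPKM in klu and 19.71, 17.40 and 11.42 FPKM in Col-0. CBF2 had 7.16, 6.24 and 6.85 FPKM in 35S:KLU1, 7.96, 6.73 and 5.20 FPKM in 35S:KLU2, 13.66, 13.24 and 31.51 FPKM in klu and 23.39, 15.04 and 15.89 FPKM in Col-0. CBF3 had 32.12, 28.45 and 29.29 FPKM in 35S:KLU1, 37.37, 36.52 and 32.19 FPKM in 35S:KLU2, 42.04, 37.56 and 59.23 FPKM in klu and 51.59, 52.00 and 56.16 FPKM in Col-0. All 6 libraries of the lines lay below the 6 of klu and Col-0 for each of the 3 genes. Of all tested genes, 11.8% lay below Col-0 in this way and 9.79% below klu. For CBF3 the gap to klu was narrow, at 37.37 FPKM in 35S:KLU2 replicate 1 against 37.56 FPKM in klu replicate 2. The log2 fold changes against Col-0 were -1.53 for CBF1, -1.30 for CBF2 and -0.70 for CBF3 (limma adjusted p = 0.00377, 0.00328 and 0.00197), and against klu -1.23, -1.31 and -0.47 (adjusted p = 0.00836, 0.00208 and 0.011). These 6 calls held in all 19 alternatives, and each line passed on its own except 35S:KLU2 against klu for CBF3 (-0.35, adjusted p = 0.0771). CBF1 and CBF2 are 86.3% identical in coding sequence, with an identical run of 68 bases, so their split is uncertain.

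Of the 16 genes of the CBF pathway list, 13 were tested, and 5 were lower and 1 higher in the lines than in Col-0, beside 8.18% and 11.4% of all tested genes. Besides the 3 CBF genes, ZAT10, a zinc finger repressor, was lower in the lines, at 14.1 to 22.78 FPKM against 34.87 to 40.31 FPKM in Col-0 (log2 fold change -1.04, limma adjusted p = 0.0103), and SCRM2 (ICE2) was lower by a small margin (-0.25, adjusted p = 0.0444), a call lost without 7 of the 12 libraries taken singly, with an adjusted p of up to 0.182 without Col-0 replicate 1. ZAT12, another zinc finger gene induced by cold and oxidative stress, was higher, at 15.29 to 23.64 FPKM in the lines against 9.9 to 12.15 FPKM in Col-0 (0.80, adjusted p = 0.0231), with 35S:KLU2 passing on its own (adjusted p = 0.041) and 35S:KLU1 not (0.0693). The call of the mean was lost without 35S:KLU2 replicate 3 (adjusted p = 0.0515), Col-0 replicate 2 (0.0882) or Col-0 replicate 3 (0.0761).

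Against klu, 4 of the 13 genes were lower and 3 higher in the lines, beside 10.7% and 15.9% of all tested genes. The lower genes were the 3 CBF genes and SCRM2 (-0.33, limma adjusted p = 0.0096), and ZAT12 was the higher gene with the largest change (0.92, adjusted p = 0.00889), with klu at 6.66, 8.34 and 16.76 FPKM. DREB2A and DREB2B, which encode activators of the drought branch, were higher at 0.31 (adjusted p = 0.0492) and 0.28 (adjusted p = 0.0258). The DREB2A call was lost in 16 of 19 alternatives, with an adjusted p of up to 0.169 without klu replicate 2, and that of DREB2B without 5 libraries, up to 0.0801. ZAT10 was not called (-0.48, adjusted p = 0.165) or in any of 19 alternatives, with klu at 20.63, 18.11 and 44.22 FPKM and a log2 fold change of -0.09 without klu replicate 3. CBF4, DDF1 and DDF2 stayed at or under 0.17, 1.28 and 0 FPKM and were not tested, and 0 of the 13 genes were called between klu and Col-0 or between the lines (limma), where 0 also had an unadjusted p under 0.05.

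**Figure D5:**
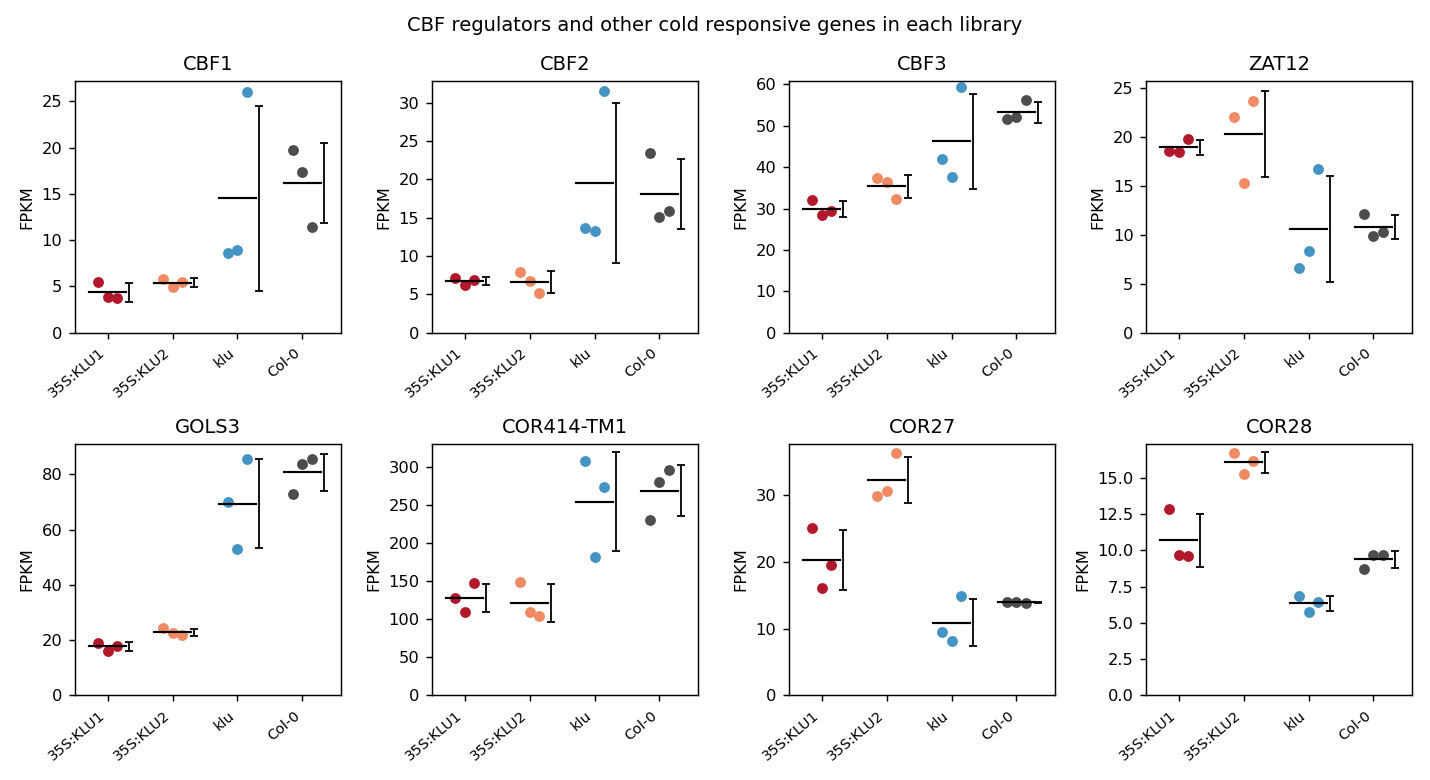
Level in FPKM (y axis, starting at 0) of CBF1, CBF2, CBF3, ZAT12, GOLS3, COR414-TM1, COR27 and COR28 in each library (points) of 35S:KLU1, 35S:KLU2, klu and Col-0, with the genotype mean (line) and its SD (bar). For CBF1, CBF2, CBF3, GOLS3 and COR414-TM1 the 6 libraries of the lines lie below the 6 of klu and Col-0, for COR27 they lie above them, and ZAT12 in klu replicate 3 reaches 16.76 FPKM.

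Of the 6 ABF genes of the ABA branch, all tested, 1 was higher and 0 lower in the lines than in Col-0, beside 11.4% and 8.18% of all tested genes. Against klu, 2 were higher and 0 lower, beside 15.9% and 10.7%. ABF4 had 26.7, 20.66 and 23.16 FPKM in 35S:KLU1, 24.55, 25.77 and 24.94 FPKM in 35S:KLU2, 17.18, 17.89 and 20.89 FPKM in klu and 18.77, 16.44 and 19.23 FPKM in Col-0. Its log2 fold change was 0.40 against Col-0 (limma adjusted p = 0.0088, lost without Col-0 replicate 2 at 0.0554) and 0.36 against klu (adjusted p = 0.0104). ABF2 was higher than in klu (0.29, adjusted p = 0.035), a call lost without 7 of the libraries taken singly, with an adjusted p of up to 0.134 without klu replicate 2. ABI5, known from seeds, had 3.38 to 4.85 FPKM in the lines and 5.11 to 5.98 FPKM in Col-0. The klu libraries stood at 2.72, 6.34 and 14.09 FPKM. ABI5 was not called against klu (-0.55, adjusted p = 0.204), with log2 fold changes of -1.05 to -0.04 over 19 alternatives. It was called in 2 of these, without klu replicate 1 (-1.05, adjusted p = 0.00386) and with library weights (-0.84, adjusted p = 0.0152). ABF1, ABF3 and AREB3 ranged over 37.98 to 55.04, 28.68 to 53.11 and 11.14 to 15.9 FPKM and were not called.

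Among 28 other genes known to respond to cold or dehydration, 27 were tested, and 6 were lower and 3 higher in the lines than in Col-0, beside 8.18% and 11.4% of all tested genes. The largest change was in GOLS3, a galactinol synthase induced by cold through the CBF factors. GOLS3 had 19.08, 16.12 and 18.08 FPKM in 35S:KLU1, 24.28, 22.59 and 21.74 FPKM in 35S:KLU2, 70.10, 52.90 and 85.44 FPKM in klu and 72.99, 83.78 and 85.52 FPKM in Col-0. The lines were lower by a log2 fold change of -1.95 against Col-0 (limma adjusted p = 5.75e-06) and -1.71 against klu (adjusted p = 7.62e-06). They overlapped with neither genotype, as in 11.8% of all tested genes against Col-0 and 9.79% against klu. COR414-TM1, a cold-regulated membrane protein gene, was lower at 104.71 to 149.5 FPKM in the lines, against 182.18 to 307.41 FPKM in the klu libraries and 230.94 to 295.81 FPKM in Col-0 (log2 fold changes -1.01 and -1.11, adjusted p = 0.00122 and 0.0012). ERD5, which encodes proline dehydrogenase, was lower than in Col-0 (-0.80, adjusted p = 0.00466), as was ERD4 (-0.39, adjusted p = 0.00123), and ERD4 was also lower than in klu (-0.25, adjusted p = 0.00836).

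COR27 and COR28, nuclear proteins that act on the circadian clock and flowering, were higher in the mean of both lines than in both other genotypes. COR27 had 25.08, 16.19 and 19.55 FPKM in 35S:KLU1, 29.95, 30.70 and 36.31 FPKM in 35S:KLU2, 9.58, 8.23 and 14.90 FPKM in klu and 14.05, 14.03 and 13.84 FPKM in Col-0. Its log2 fold change was 0.82 against Col-0 and 1.19 against klu (limma adjusted p = 0.00478 and 3.59e-04). COR28 had 9.6 to 16.74 FPKM in the lines, 5.77 to 6.84 FPKM in the klu libraries and 8.73 to 9.71 FPKM in Col-0, with 0.44 and 0.94 (adjusted p = 0.0075 and 6.65e-05). Taken singly, 35S:KLU2 passed for both genes against Col-0 (COR27 1.15, COR28 0.72, adjusted p = 0.00267 and 0.00197), while 35S:KLU1 did not (0.49 and 0.16, adjusted p = 0.114 and 0.369) and overlapped with Col-0 for COR28. Against klu each line passed for both genes. The calls of GOLS3, COR414-TM1, COR27, COR28 and ERD4 in both comparisons, and of ERD5 against Col-0, held in all 19 alternatives. Against klu, 3 of the 27 genes were lower and 4 higher, beside 10.7% and 15.9% of all tested genes, the others being GOLS1 (0.52, adjusted p = 0.0161, lost without klu replicate 1 at 0.0645 and with library weights at 0.0529) and ERD6 (0.34, adjusted p = 0.00633). COR413-PM1 was lower than in Col-0 (-0.39, adjusted p = 0.0135, lost without Col-0 replicate 2 at 0.0545 or Col-0 replicate 3 at 0.0663). The median of the 27 genes was -0.13 against Col-0 and 0.11 against klu, where all tested genes stood at 0.03 and 0.04.

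Of the nearest annotated genes on either side of the 10 members that are not members themselves, those called are given first. Over all tested genes, 19.6% were called in the lines against Col-0 and 26.6% against klu. CYP96A4, 1078 bases after RD29A on the opposite strand, was higher in the lines, at 44.98 to 66.57 FPKM against 30.36 to 34.8 FPKM in the klu libraries and 36.57 to 50.37 FPKM in Col-0 (log2 fold changes 0.80 and 0.41, limma adjusted p = 3.33e-04 and 0.0197). RD29A itself was lower in the lines than in Col-0. AT5G15950, 1680 bases before KIN1, was lower in the lines, at 12.49 to 16.55 FPKM against 23.67 to 25.34 FPKM in the klu libraries and 17.61 to 23.15 FPKM in Col-0 (-0.67 and -0.47, adjusted p = 9.97e-04 and 0.0103), while KIN1 was not called. PLP3a, 214 bases before LTI30, was lower than in klu (-0.43, adjusted p = 0.0272). AT1G20430 before COR47, AT1G20460 after ERD10, AT2G42520, APC11 and KIN2 were not called, and AT2G42550, SHOC1, XERO1 and AT3G05905 did not pass the filter.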

How the data were processed

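RNA-seq was made from poly(A) RNA of 12 whole rosettes, 3 individual plants for each of 4 genotypes, with a directional kit and paired-end reads. Per the submitters' processing notes, STAR and RSEM 1.2.22 were used with TAIR10, and the authors deposited 1 FPKM value per gene and library. The settings of the aligner and the use of strand in counting are not given in the sources used here. The same table holds the authors' own log2 fold changes, p-values and adjusted p-values, which were not used, and 0 columns of per-sample values were left out. The authors' own tests were made with DESeq2. Because FPKM are normalized values, differences were tested here with limma 3.58.1 in R 4.3.3 on log2(FPKM + 1), with a mean-variance trend, all 4 genotypes in 1 model and Benjamini-Hochberg adjustment over the 19660 of 24434 genes above 0 that had at least 0.5 FPKM in at least 3 libraries. Log2 fold changes are on this scale, which understates changes of low genes. The step was tested on simulated data with 200 changed genes.

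Named are the 10 genes, their nearest annotated neighbours, every gene of a related list of at most 12 genes, up to 6 called genes of longer lists per comparison, and up to 3 tested genes with a mean of at least 5 FPKM nearest in pattern, while other genes were named after their values were seen. The members and lists were chosen with earlier results of these data known. Ratios of neighbouring genes and the alternatives for list genes were added after seeing the data. Positions and promoter sequences come from RefSeq annotation of TAIR10.1, in which 32835 genes of the table were found. Alternatives were no filter, a pseudocount of 0.1, a replicate block, median-of-ratios and upper-quartile scaling, only the genotypes compared, library weights and leaving out each library.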

Additional observations from a re-analysis of the deposited data

How the results depend on the processing

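Of 1520 repeats of the tests of the 10 genes, 1438 kept the call or its absence, 50 lost a call, 32 gained one and 0 reversed a call. Most of the 1520 were repeats of tests that had no call to lose, so the 1438 do not measure how stable the calls were. Against Col-0, the 3 calls for both lines became 6 with only the genotypes compared in the model and 5 with library weights, settings under which the calls over all genes also increased to 28.9% and 31.2% against 19.6%, and 1 to 5 when single libraries were left out, with 1 without Col-0 replicate 3 (13.5% of all genes) and 5 without klu replicate 3 (21.5%). The 4 calls against klu became 2 without the filter and 2 with only the genotypes compared (20.5% and 23.4% of all genes against 26.6%), and 2 to 5 when single libraries were left out, with 2 without 35S:KLU1 replicate 3, any library of 35S:KLU2 or Col-0 replicate 3, and 5 without klu replicate 3. Between the lines, 0 calls became 1 with a pseudocount of 0.1, and 0 to 1 when single libraries were left out. Between klu and Col-0 the count stayed at 0 in all 19 alternatives.

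The replicate numbers of the labels do not pair the libraries: over 18 pairs of the same number the deviations from the genotype means correlated at -0.16 to 0.13, and 2 of 12 libraries correlated best with their own number. With the number as a replicate block, 3, 3, 0 and 0 genes were called against Col-0, against klu, between klu and Col-0 and between the lines, COR15B against klu being lost (adjusted p = 0.0684). Without total fragment counts the counting error of low genes, RCI2B and RD29B among them, could not be given, and with 3 libraries per genotype a missed call does not show equal levels.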
